A study of Rattus norvegicus with 18 samples.

Results

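The genes described here are 6 CC chemokine genes, Ccl2, Ccl3, Ccl4, Ccl5, Ccl6 and Ccl7, and the cytokine gene Il18, measured in rat lung after repeated inhalation of cigarette smoke. They were taken by name: every probe set that the platform annotation assigns to one of these 7 symbols alone was used. This gave 8 probe sets of 20347 with a single symbol, covering 7 of 13810 genes. Ccl6 has 2 probe sets, one on each of the array types, called A and B here. Counts over the 7 genes take Ccl6 by its brighter probe set, that on type A. Ccl7 is measured on type B only, and the other 5 genes on type A only. All 8 probe sets passed the filter on dim signals, set at 183.8 on type A and 238.7 on type B in at least 3 of 9 arrays, but Ccl2 was below it on 4 arrays and Ccl7 on 5.

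Male Sprague-Dawley rats were exposed nose-only for 2 h a day, 5 days a week, over 13 weeks. One exposure was mainstream smoke of the reference cigarette 2R4F at a particle load, weighed as total particulate matter (TPM), of 600 µg per litre, another the same smoke at 300 µg per litre, and the third a sham exposure. Whole lung RNA was prepared 2, 6 or 20 h after the last session, so the 3 exposures and 3 recovery times form 9 conditions. Each condition has 1 array of each type, 18 arrays in all. Neither the age of the rats nor the number of animals behind an array is given in the labels. Since no array was repeated, the 3 recovery times of an exposure served as its replicates (n = 3 arrays per exposure and type). P-values reflect only the scatter among such arrays, with the spread of each probe set moderated by that of others of like signal. For the smoke-exposed lungs at 20 h, one further label reads sham although the titles and source names give the smoke concentration, and the titles were followed. Median signals were 263.6 to 278.5 on the type A arrays and 315.3 to 338.7 on the type B arrays. On type B, 2 arrays stood apart, those of 300 µg/l and of sham at 2 h. Across probe sets, which are no replicates, they departed from the type B average in a like way (r = 0.56), against at most 0.12 for any other type B pair and -0.16 for the type A arrays of these conditions. Among the 7 genes, this touches the type B probe sets of Ccl6 and Ccl7. Their values against sham and between times are also given without the sham array. Some are also given without the 300 µg/l condition at 2 h: Ccl7 between times, Ccl6 at 600 µg/l against sham, and both between the concentrations. Type B genes of the lists further on carry the same arrays. The tissue label was borne out by its markers: all 11 epithelial genes listed, the surfactant genes Sftpc, Sftpb and Sftpa1 among them, passed the filter, and the lowest signal of any of them was 965.9.

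CC chemokines are small secreted proteins, named for adjacent cysteines near the amino end, that draw leukocytes along a gradient by way of G protein-coupled receptors. Ccl2 and Ccl7 attract monocytes through the receptor Ccr2. Ccl3, Ccl4 and Ccl5 act on macrophages, T cells and NK cells, and Ccl5 is itself made by activated T cells and NK cells. Ccl6 is a rodent chemokine made in mice by macrophages and other myeloid cells. Il18 encodes a cytokine of the interleukin-1 family that is stored as an inactive precursor, released after cleavage by caspase-1, and known for inducing interferon-gamma in T and NK cells together with interleukin-12. Macrophages and epithelial cells are known sources of Il18 and of several of these chemokines in the lung. An array measures the transcript, not the cleaved or secreted protein.

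In the RefSeq gene table of the rat assembly GRCr8 the chemokine genes lie together on chromosome 10. Ccl2 and Ccl7 are direct neighbours, as are Ccl6, Ccl3 and Ccl4, in that order, with no other annotated gene between them. Ccl5 is separated from Ccl6 by 3 annotated genes and from Ccl7 by 44. The RefSeq promoter table (build GRCr8, 250 bases before to 50 bases after the gene start) held 3 of the 7 genes. These 3 are shown because no others of the 7 were available. Ccl6 and Il18 belong to the genes that rose at 600 µg/l, whereas Ccl7 did not pass. A link between sequence and change was not tested. Capitals mark matches, on either strand, to TATAAA, to the AP-1 motif TGANTCA, to the NF-κB consensus, to CCAAT or to the ETS core AGGAAG.

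Ccl6, chr10:68883317-68883616, minus strand: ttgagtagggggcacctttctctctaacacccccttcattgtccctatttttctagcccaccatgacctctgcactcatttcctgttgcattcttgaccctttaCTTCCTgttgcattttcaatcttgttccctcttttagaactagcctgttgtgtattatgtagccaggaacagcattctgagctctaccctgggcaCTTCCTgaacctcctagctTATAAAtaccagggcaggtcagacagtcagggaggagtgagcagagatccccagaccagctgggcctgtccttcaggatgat

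Il18, chr8:59801822-59802121, plus strand: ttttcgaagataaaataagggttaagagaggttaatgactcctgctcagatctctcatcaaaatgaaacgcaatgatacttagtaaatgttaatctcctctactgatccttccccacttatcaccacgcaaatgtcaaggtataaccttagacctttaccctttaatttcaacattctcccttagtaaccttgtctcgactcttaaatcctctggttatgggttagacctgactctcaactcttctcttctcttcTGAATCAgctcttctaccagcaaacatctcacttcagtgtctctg

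Ccl7, chr10:67513845-67514144, plus strand: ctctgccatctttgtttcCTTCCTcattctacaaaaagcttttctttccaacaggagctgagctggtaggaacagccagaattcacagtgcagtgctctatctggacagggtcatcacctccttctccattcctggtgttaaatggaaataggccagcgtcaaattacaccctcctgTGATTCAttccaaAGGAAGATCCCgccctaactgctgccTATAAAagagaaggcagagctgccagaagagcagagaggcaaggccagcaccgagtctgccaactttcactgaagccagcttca

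The Ccl6 and Ccl7 windows each hold a TATAAA, which begins 32 bases before the gene start in Ccl6 and 34 bases before it in Ccl7. The Il18 window holds none, and 14.2% of all 33469 promoters in the table have one. A TGANTCA match (7.3% of all promoters) begins 73 bases before the start of Ccl7 and at base 6 of the Il18 gene. A match to the NF-κB consensus (7.5% of all promoters) was found in Ccl7 alone of these windows, on the reverse strand from 59 bases upstream, where it overlaps a match to the ETS core. Matches to AGGAAG (34.5% of all promoters) occur in Ccl6 and Ccl7, and CCAAT (37.5%) in none of the 3. A match is a description of these letters, and its absence says nothing of the factor.

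The first question was which of the 7 genes had another level after the higher smoke concentration than after sham exposure. Ccl3, Ccl6 and Il18 rose 1.42- to 1.59-fold and Ccl5 fell 1.47-fold. All changes here are on the scale of log2(signal + 50). Ccl4 and Ccl7 did not pass, nor did Ccl2, although all of its signals at 600 µg/l lay above those in sham lungs. In all, 4 of the 7 genes passed an adjusted p of 0.05 in limma, against 0.514% of the 19638 probe sets tested; 3 of them rose, against 0.428% of probe sets, and 1 fell, against 0.0866%. The median change of the 7 genes was 0.50, beside -0.01 over all probe sets tested. Signals at 600 µg/l lay wholly above sham for 4 genes (6.98% of all probe sets) and wholly below for 1 (7.42%). One of the 4 is Ccl2, whose sham signals were all under the filter level, so that it passed the filter only through smoke arrays and adds nothing to the count. The median of 0.50 holds Ccl2 too and is limited in the same way. These genes were put together with earlier results of the same arrays known, so the counts describe them and are no independent support.

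**Figure D1:**
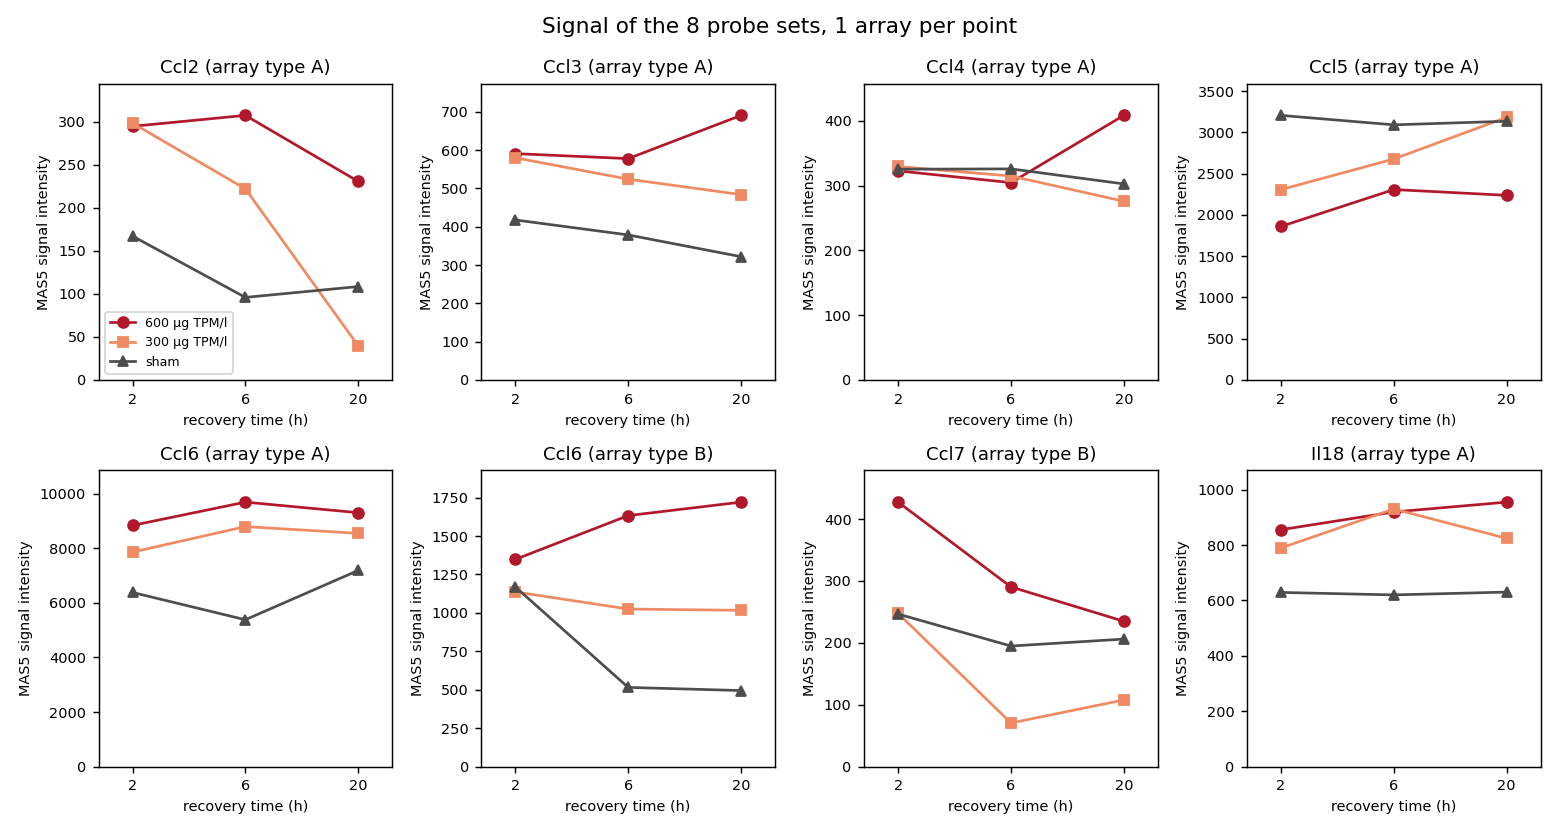
MAS5 signal intensity (vertical axes, linear, from 0) of the 8 probe sets against recovery time (2, 6 and 20 h, evenly spaced), with red circles for 600 µg/l, orange squares for 300 µg/l and grey triangles for sham, 1 array per point. The red points lie above the grey ones at every time for Ccl2, Ccl3, Ccl6, Ccl7 and Il18 and below them for Ccl5, whereas those of Ccl4 cross.

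Among the attractants of macrophages and lymphocytes, Ccl3 encodes macrophage inflammatory protein 1-alpha. Its signal at 600 µg/l was 590.9 at 2 h, 577.9 at 6 h and 690.8 at 20 h, against 417.7, 378.6 and 321.8 in sham lungs. Every 600 µg/l array was above every sham array, and the ratio was 1.41 at 2 h, 1.53 at 6 h and 2.15 at 20 h. Ccl3 rose 1.59-fold (log2 0.67, SE 0.11, adjusted p = 0.039).

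Ccl5, which encodes the T cell attractant RANTES, was the member that fell. At 600 µg/l it read 1860.2, 2307.0 and 2237.2 at 2, 6 and 20 h, against 3206.2, 3091.4 and 3135.2 in sham lungs. The sham values were close together (3144.3 ± 57.9, SD, n = 3), and the highest value at 600 µg/l lay far below the lowest of them. Ccl5 fell by 0.55 on the log2 scale (SE 0.10, adjusted p = 0.043), and the ratio was 0.58, 0.75 and 0.71 at the 3 times.

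Ccl4, which encodes macrophage inflammatory protein 1-beta and lies beside Ccl3 in the genome, read 322.6, 304.5 and 408.3 at 600 µg/l, against 325.2, 325.7 and 302.5 in sham lungs. The groups overlapped, with only the 20 h array at 600 µg/l above the sham range. Its log2 change was 0.09 (95% confidence interval -0.18 to 0.37, adjusted p = 0.85), and it turned to -0.06 without the 600 µg/l arrays at 20 h.

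Ccl6 had its brighter probe set on type A. There the signal at 600 µg/l was 8838.6, 9690.9 and 9303.4 at 2, 6 and 20 h, against 6382.5, 5381.6 and 7188.4 in sham lungs, with no overlap between the groups. Ccl6 rose 1.47-fold by this probe set (log2 0.56, SE 0.09, adjusted p = 0.031). The type B probe set read 1348.1, 1632.8 and 1720.4 at 600 µg/l, against 1168.9, 515.4 and 494.9 in sham lungs. The 2 h sham value, on one of the arrays that stood apart, was more than 2 times each of the other two sham values. With it, type B gave a change of 1.16 (SE 0.24, adjusted p = 0.084). Without it the change was 1.56 and passed (adjusted p = 0.0020). Without the 300 µg/l condition at 2 h, whose type B array also stood apart, the change stayed at 1.16 and did not pass in limma (adjusted p = 0.12). Both probe sets put 600 µg/l above sham at every time. The ratio was 1.15 at 2 h, 3.17 at 6 h and 3.48 at 20 h on type B, and 1.38, 1.80 and 1.29 on type A, so that type B gave the smaller factor at 2 h and the larger one at 6 and 20 h.

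Il18 had the steadiest sham signal of the 7 genes, 626.5 ± 5.6 (SD, n = 3). It read 855.5, 919.6 and 955.1 at 600 µg/l, against 629.0, 620.1 and 630.3 in sham lungs at 2, 6 and 20 h. The groups did not overlap, and the ratio was 1.36, 1.48 and 1.52. Il18 rose 1.42-fold (log2 0.50, SE 0.09, adjusted p = 0.040).

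The monocyte attractants were dim. Ccl2, the gene of monocyte chemoattractant protein 1, read 294.8, 307.5 and 230.7 at 600 µg/l, against 167.2, 95.9 and 108.5 in sham lungs. The groups did not overlap, and all 3 sham values were below the filter level of type A. Its log2 change of 0.93 was the largest of the type A probe sets, but with a 95% confidence interval of 0.26 to 1.60 it did not pass (adjusted p = 0.29). Without the 300 µg/l arrays at 20 h, where Ccl2 had its lowest signal of 39.6, the same change passed (adjusted p = 0.031). Ccl7, the gene of monocyte chemoattractant protein 3, read 427.3, 290.3 and 234.8 at 600 µg/l, against 246.5, 194.8 and 206.1 in sham lungs, with overlapping ranges. Its log2 change was 0.44 (95% confidence interval -0.15 to 1.02, adjusted p = 0.62), and 0.23 without the type B sham array at 2 h.

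**Figure D2:**
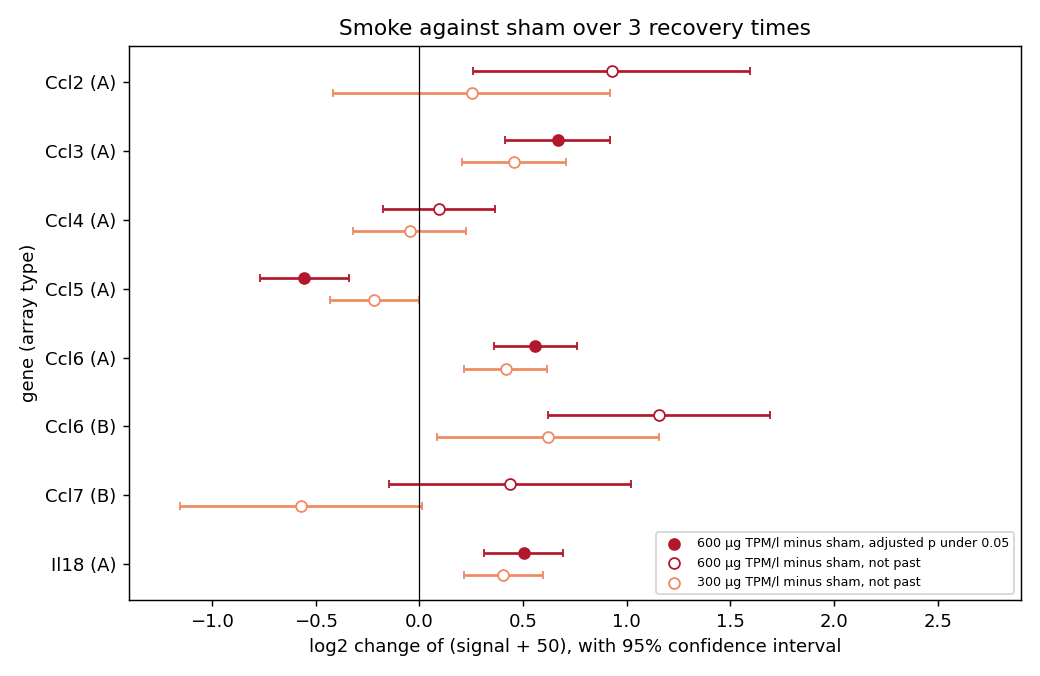
Log2 change of (signal + 50) against sham for each probe set, with its 95% confidence interval from limma, for 600 µg/l (red, upper) and 300 µg/l (orange, lower); filled points passed an adjusted p of 0.05. Filled points are Ccl3 (0.67), Ccl5 (-0.55), Ccl6 on type A (0.56) and Il18 (0.50) at 600 µg/l, and none at 300 µg/l.

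None of the 4 calls at 600 µg/l held under every one of 21 alternative settings. The call of Ccl6 on type A was lost under 9, that of Il18 under 12, and those of Ccl3 and Ccl5 under 13 each, with adjusted p-values up to 0.15 for Ccl6, 0.25 for Il18, 0.22 for Ccl3 and 0.19 for Ccl5. The signs did not change: the log2 change ran from 0.50 to 0.77 for Ccl3, from -0.63 to -0.44 for Ccl5, from 0.42 to 0.65 for Ccl6 on type A and from 0.42 to 0.55 for Il18. When a condition was left out, the number of the 7 genes that passed was 0 without 600 µg/l at 2, 6 or 20 h or without sham at 2 h, 1 (Ccl6) without sham at 6 or 20 h or without 300 µg/l at 2 h, 2 (Ccl6 and Il18) without 300 µg/l at 6 h, and 3 (Ccl2, Ccl5 and Ccl6) without 300 µg/l at 20 h. It was 0 without all 20 h conditions and 4 without the type B sham array at 2 h.

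**Figure D3:**
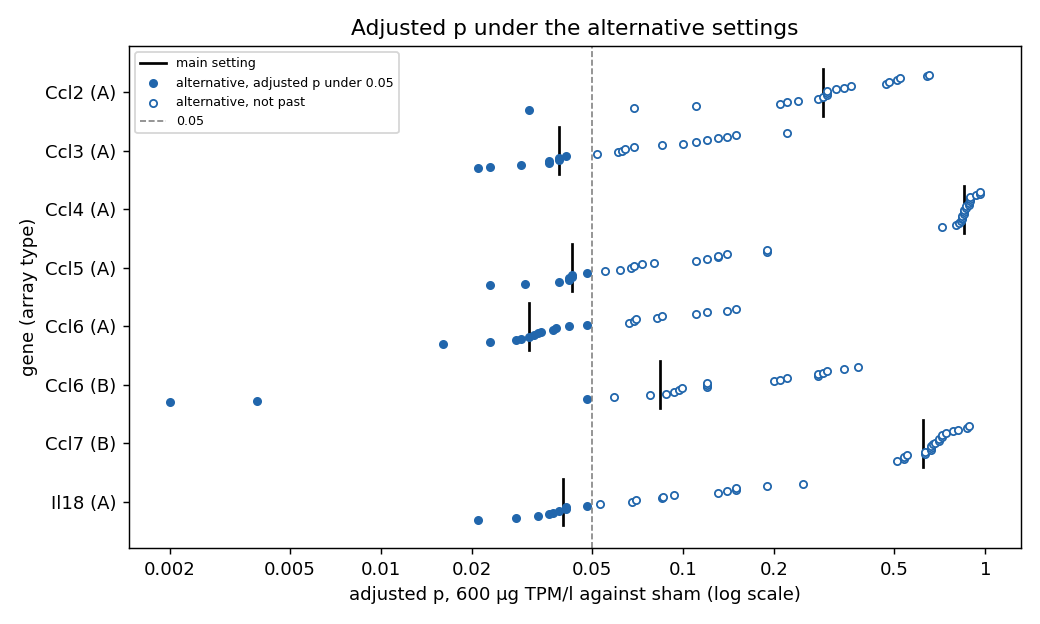
Adjusted p (horizontal log axis) of 600 µg/l against sham for each probe set: the black line is the main setting, points are the alternatives that tested it, filled where under 0.05 (dashed line). The lines of Ccl3, Ccl5, Ccl6 on type A and Il18 lie between 0.031 and 0.043 with points on both sides of 0.05, and the type B probe set of Ccl6 has its lowest points, 0.0020 and 0.0039, without the type B sham array at 2 h.

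Smoke at the lower concentration, 300 µg/l, was then set against sham. None of the 7 genes passed in limma, where 0.0458% of all probe sets did, and 4 of the 7 had an unadjusted p under 0.05, against 5.53% of all probe sets. Signals at 300 µg/l lay wholly above sham for Ccl3, Ccl6 on type A and Il18, 3 genes (4.12% of all probe sets), and wholly below for none (4.32%). Il18 read 789.5, 930.4 and 824.2 at 300 µg/l, against 629.0, 620.1 and 630.3 in sham lungs (log2 0.41, 95% confidence interval 0.21 to 0.60, adjusted p = 0.26). Ccl6 on type A read 7860.6, 8794.3 and 8546.9, against 6382.5, 5381.6 and 7188.4 in sham lungs (log2 0.42, interval 0.22 to 0.62, adjusted p = 0.27). These values were the nearest to the threshold among the 7 genes at this concentration.

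Ccl3 read 580.1, 524.2 and 483.9 at 300 µg/l, against 417.7, 378.6 and 321.8 in sham lungs (log2 0.46, interval 0.21 to 0.71, adjusted p = 0.40). Ccl5 read 2306.2, 2677.5 and 3182.2, against 3206.2, 3091.4 and 3135.2 in sham lungs, so that it was below sham at 2 and 6 h and within the sham range at 20 h (log2 -0.22, interval -0.43 to -0.0013, adjusted p = 0.90). Ccl4 stood at -0.05 (adjusted p = 1.0).

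Ccl2 read 298.5 and 222.1 at 2 and 6 h at 300 µg/l, above all sham values, but 39.6 at 20 h, below all of them, and its log2 change was 0.25 (SE 0.30), or 0.76 (adjusted p = 0.31) without that array. Ccl7 read 247.6, 70.5 and 107.7, against 246.5, 194.8 and 206.1 in sham lungs, and was thus lower at 6 and 20 h (log2 -0.57, interval -1.16 to 0.01, adjusted p = 0.91), with a change of -0.78 (adjusted p = 0.70) without the type B sham array at 2 h. The type B probe set of Ccl6 read 1136.6, 1025.1 and 1016.6 at 300 µg/l, against 1168.9, 515.4 and 494.9 in sham lungs, with a log2 change of 0.62 (adjusted p = 0.81) and of 1.02 (adjusted p = 0.069) without the type B sham array at 2 h.

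Between the concentrations, the comparison of 600 with 300 µg/l called none of the 7 genes in limma (0.0204% of all probe sets passed), and 3 had an unadjusted p under 0.05, against 5.05% of all probe sets. Ccl7 had the largest difference, 1.01 (interval 0.43 to 1.59, adjusted p = 0.80), followed by Ccl2 with 0.68 (interval 0.01 to 1.34, adjusted p = 0.98), both on dim signals. The difference of Ccl2 was 0.16 without 300 µg/l at 20 h and 0.19 without all 20 h conditions. Ccl5 stood at -0.34 (interval -0.55 to -0.12, adjusted p = 0.86). For Ccl3 the difference was 0.21 (interval -0.04 to 0.46), for Ccl6 on type A 0.14 (-0.06 to 0.34), for Il18 0.10 (-0.09 to 0.29) and for Ccl4 0.14 (-0.13 to 0.41), which does not show that the concentrations gave the same level. The type B probe set of Ccl6, which is not in the count of 3, stood at 0.54 (interval 0.0026 to 1.07, adjusted p = 0.99). Its unadjusted p in limma was 0.049. Without the 300 µg/l condition at 2 h, whose type B array stood apart, the difference was 0.45 for this probe set and 1.24 for Ccl7.

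Recovery time was compared over the 3 exposures. None of the 7 genes passed in limma at 6 h against 2 h (0.0153% of all probe sets passed), at 20 h against 2 h (0.0509%) or at 20 h against 6 h (0%). An unadjusted p under 0.05 was found for 1 of the 7 genes at 6 h against 2 h, where 10.8% of all probe sets had one, for 3 at 20 h against 2 h, where 11.4% had one, and for 0 at 20 h against 6 h, where 4.49% had one. Ccl2 had mean signals of 253.5 ± 74.8, 208.5 ± 106.5 and 126.3 ± 96.8 (SD, n = 3) at 2, 6 and 20 h, and its log2 change at 20 h against 2 h was -0.90 (interval -1.57 to -0.23, adjusted p = 0.30), but -0.39 (adjusted p = 0.60) without 300 µg/l at 20 h, the array of 39.6. Ccl7 had 307.1 ± 104.1, 185.2 ± 110.2 and 182.9 ± 66.7, with changes of -0.69 at 6 h and -0.62 at 20 h against 2 h (adjusted p = 0.39 and 0.40). Without the type B sham array at 2 h these were -0.90 and -0.83, and without 300 µg/l at 2 h -0.46 and -0.40, none of which passed. The type B probe set of Ccl6 stood at -0.33 and -0.32 (adjusted p = 0.66 and 0.65), and at 0.077 and 0.079 without that sham array. Ccl5 stood at 0.15 and 0.23 at these times against 2 h (adjusted p = 0.59 and 0.41). Ccl3, Ccl4, Ccl6 on type A and Il18 lay between -0.12 and 0.12 at both times.

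Whether the effect of smoke differed between recovery times was tested with both concentrations as 1 smoke group against sham. No gene of the 7 passed in limma for 6 h against 2 h (0% of all probe sets passed, and 6.27% of them and 1 of the 7 genes had an unadjusted p under 0.05) or for 20 h against 2 h (0.0102% passed, and 3.45% of probe sets and 0 of the 7 genes had an unadjusted p under 0.05). The largest values belonged to the type B probe set of Ccl6, which is not the one counted. They were 1.17 (SE 0.46, adjusted p = 0.76) at 6 h and 1.25 (SE 0.46, adjusted p = 1.0) at 20 h relative to 2 h. Their unadjusted p in limma was 0.03 and 0.022, and both values rest on the type B sham array at 2 h. The type A probe set of Ccl6 gave 0.39 (SE 0.16, adjusted p = 0.77) and -0.07 (SE 0.16, adjusted p = 1.0). The same direction at 20 h was therefore not seen on both probe sets.

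Related genes were read from lists, each gene by its brightest tested probe set. Of 14 other CC chemokine genes, 5 were tested and none passed at 600 or 300 µg/l in limma. Their median change at 600 µg/l was 0.03. Ccl9, which lies between Ccl5 and Ccl6 on chromosome 10, stood at 0.57 (SE 0.22, adjusted p = 0.41, or 0.70 and 0.38 without the type B sham array at 2 h) and the eosinophil attractant gene Ccl11 at -0.44 (SE 0.16, adjusted p = 0.37), with Ccl20 at 0.27. Of 14 CC chemokine receptor genes, 5 were tested and none passed, with a median of -0.01. Ccr1, a receptor of Ccl3 and Ccl5 among others, read 248.3 to 354.6 at 600 µg/l, against 177.5 to 233.1 in sham lungs (log2 0.46, SE 0.16, adjusted p = 0.34). The scavenging receptors Ackr4 and Ackr2 stood at -0.26 and 0.13. Ccr2, Ccr3, Ccr4, Ccr6 and Ccr10 did not pass the filter.

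Of 17 genes of Il18 processing and signalling, 10 were tested, none passed at either concentration, and the median change at 600 µg/l was 0.00. Il1b, the interleukin-1 beta gene, which like Il18 gives a precursor cleaved by caspase-1, read 481.5 to 606.5 at 600 µg/l, against 256.0 to 369.4 in sham lungs (log2 0.69, SE 0.14, adjusted p = 0.084). The caspase-1 gene Casp1 stood at -0.18 (SE 0.11, adjusted p = 0.62) and the adaptor gene Myd88 at 0.15 (SE 0.09, adjusted p = 0.64). The receptor gene Il18r1 stood at -0.08, or at 0.15 without the type B sham array at 2 h, and Il18bp, whose product binds and neutralises interleukin-18, at -0.16. Ifng, Il12a and Il12b did not pass the filter.

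Of 16 chemokine genes of the CXC, C and CX3C classes, 11 were tested, and 2 rose, none fell and 9 did not pass at 600 µg/l. Over all probe sets tested, 0.428% rose. The risers were the neutrophil attractants Cxcl1 (log2 1.33, SE 0.22, adjusted p = 0.033) and Cxcl2 (log2 1.17, SE 0.18, adjusted p = 0.021). Cxcl2 read 63.2 to 83.5 in sham lungs, all under the filter level. It passed the filter only through smoke arrays, so its call adds nothing to the count. Cxcl14 read 755.7 to 858.2, against 1135.6 to 2162.2 in sham lungs, with a change of -0.80 (SE 0.15, adjusted p = 0.051). The list's median was 0.41, beside 0.50 for the 7 genes. Both sets were chosen with earlier results of these arrays known. Each also holds a gene that passed the filter only through smoke arrays, Cxcl2 or Ccl2. The medians are therefore not ranked. Of 18 genes for NF-κB subunits and targets, 10 were tested and none passed, with a median of 0.02 and a range of -0.16 to 0.19, among them Nfkb1 at -0.15, Icam1 at -0.13 and the inhibitor gene Nfkbia at 0.19.

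Markers of cells that could hold these transcripts were read beside the changes. In whole lung, fewer cells of a type and less RNA per cell cannot be told apart. Beside the rise of Ccl3, Ccl6 and Il18, 3 of 7 tested macrophage markers rose at 600 µg/l, none fell and 4 did not pass: Gpnmb (log2 1.30, SE 0.11), Cd68 (log2 1.17, SE 0.09) and Lgals3 (log2 0.74, SE 0.08), with adjusted p = 5.2e-04, 5.2e-04 and 0.0034. All 7 changes were above 0, with a median of 0.74. Over all probe sets tested, 0.428% rose at 600 µg/l and the median change was -0.01. The summed signal of the 5 macrophage markers on type A was 34451.6 to 38559.0 at 600 µg/l, against 24923.8 to 28051.0 in sham lungs, and that of the 2 on type B was 6017.7 to 6426.0, against 5441.2, 4280.7 and 3721.4 in sham lungs at 2, 6 and 20 h. At 300 µg/l, where Ccl3, Ccl6 and Il18 did not pass, 2 of the 7 rose, Gpnmb (0.97) and Cd68 (0.85, adjusted p = 0.010 for both), with a median of 0.56. Of all probe sets, 0.0458% passed at this concentration. None of the 8 macrophage markers on the arrays had a signal of 0, and the lowest was 40.3, of Fabp4. Of 6 monocyte markers tested, Cd14 rose (log2 0.78, SE 0.12, adjusted p = 0.021) and 5 did not pass, Plac8 at -0.58 and S100a4 at 0.15 among them, with summed signals of 8128.5 to 9033.2 at 600 µg/l and 8169.4 to 9158.7 in sham lungs. Of 3 neutrophil markers tested, S100a9 rose (log2 2.33, SE 0.22, adjusted p = 0.0015), and S100a8 (0.77) and Csf3r (0.27) did not pass. The part of these cells in the rise of the 3 genes was not tested.

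Beside the fall of Ccl5, none of 9 T cell markers tested passed at 600 µg/l, but all 9 changes were below 0, from -0.46 to -0.03, with a median of -0.38. Over all probe sets tested the median was -0.01. Cd3d, Cd5 and Cd8a, the last with the -0.46, were under the filter level on all 600 µg/l arrays. They passed the filter only through 300 µg/l or sham arrays, so their changes below 0 add nothing to the count. The list's median holds them too, as do the sums given below, Cd3d and Cd5 on type A and Cd8a on type B. The median and these sums are limited in the same way. Cd3g stood at -0.40 (adjusted p = 0.16), Cd4 at -0.38 (adjusted p = 0.26) and the kinase gene Lck at -0.38 (adjusted p = 0.30). The summed signal of the 5 T cell markers on type A was 1597.9 to 1883.8 at 600 µg/l, against 2165.1 to 2463.8 in sham lungs, and that of the 4 on type B was 1600.3 to 1813.7, against 1509.5, 2148.6 and 2390.3 in sham lungs at 2, 6 and 20 h. These type B sums overlapped with sham. They lay wholly below it only when the 2 h sham array, which had the lowest sum, was left out. Of 10 NK and cytotoxic cell markers, none passed and 9 were below 0, with a median of -0.33. Klrb1a, one of the 9, was likewise under the filter level on all 600 µg/l arrays. This limits the list's median and its type A sum, which hold Klrb1a, in the same way. The granule protein gene Nkg7 stood at -0.51 (adjusted p = 0.15), the perforin gene Prf1 at -0.46 (adjusted p = 0.27) and Gzmk at -0.33 (adjusted p = 0.21). Their summed signal over 7 genes on type A was 2261.3 to 2644.5 at 600 µg/l, against 3019.4 to 3573.2 in sham lungs, and over 3 genes on type B 1962.0 to 2134.8, against 1807.5, 2313.1 and 2013.4 in sham lungs at 2, 6 and 20 h, overlapping with or without the 2 h array. At 300 µg/l, where Ccl5 did not pass, the medians were -0.07 for the T cell list and -0.10 for the NK and cytotoxic list. No marker of either list on the arrays had a signal of 0, the lowest being 13.4 (Trat1) and 49.1 (Ctsw). The part of these cells in the fall of Ccl5 was not tested.

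Without the type B sham array at 2 h, no type B gene of any list passed at 600 µg/l. The medians then were 0.07 for the receptor list, 0.07 for the Il18 list, 0.48 for the CXC, C and CX3C list, -0.38 for T cell markers and -0.33 for NK and cytotoxic markers. The remaining marker lists held no call at 600 µg/l. With all arrays, their medians were -0.06 over 5 B cell and plasma cell genes, -0.18 over 3 mast cell genes, -0.02 over 11 epithelial genes and -0.16 over 7 endothelial genes. Without the type B sham array at 2 h, the B cell and plasma cell median was -0.11 and the endothelial median -0.17. The lowest single values with all arrays were -0.40 for the alveolar type 1 water channel gene Aqp5 and -0.38 for the endothelial gene Emcn.

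**Figure D4:**
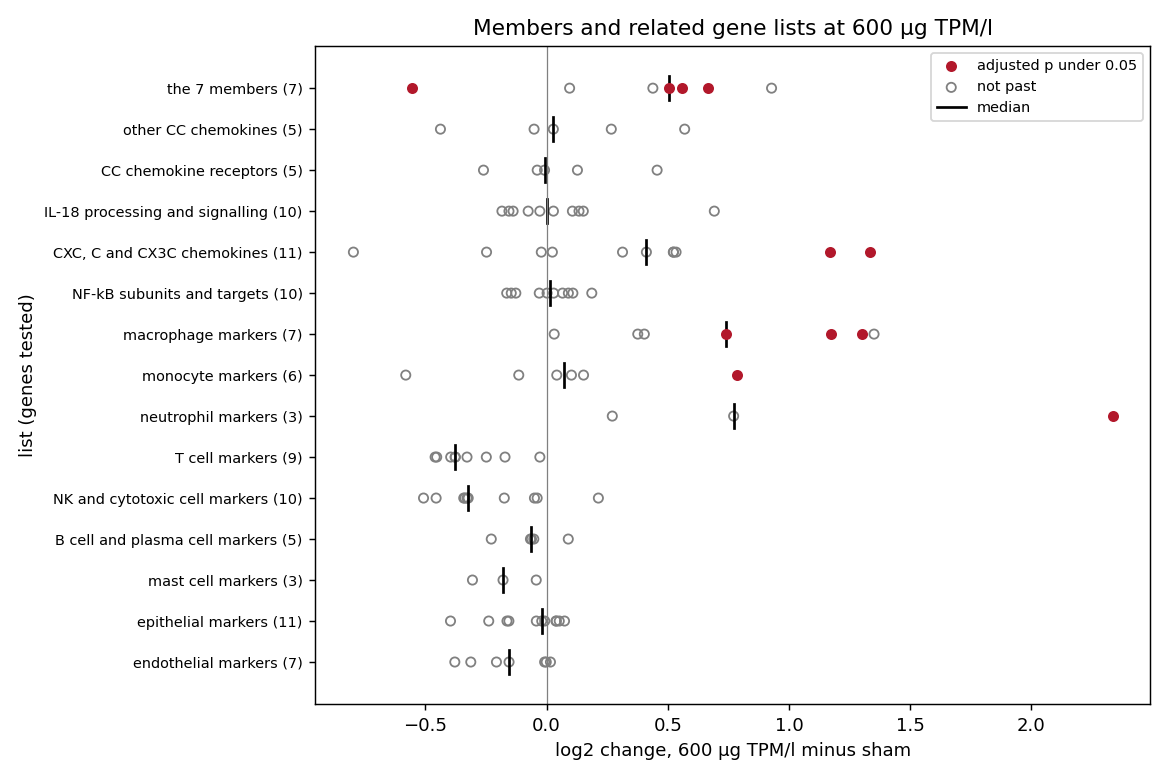
Log2 change at 600 µg/l against sham of each tested gene (points, red where the adjusted p was under 0.05) in the 7 genes described here and in 14 related lists, with the median as a black line and the number of genes in brackets. The 7 genes have a median of 0.50 with 1 red point below 0, macrophage markers a median of 0.74 with all points above 0, and T cell markers a median of -0.38 with all points below 0. Ccl2 was under the filter level on all sham arrays, and the T cell markers Cd3d, Cd5 and Cd8a on all 600 µg/l arrays.

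The genes most alike in pattern were named by the highest Pearson r of log2 values over the 9 arrays of a type, among 6437 genes on type A or up to 3727 on type B. These r values describe arrays that share the exposure groups and carry no test. Closest to Ccl3 were Igsf6 (r = 0.99), the clock repressor gene Bhlhe41 (0.96) and the peroxiredoxin gene Prdx5 (0.96). Closest to Ccl6 on type A were the intermediate filament gene Vim (0.96), the leukocyte tetraspanin gene Cd53 (0.95) and Diablo (0.95), and Vim was also next to Il18 (0.98), after Prodh2 (0.98) and before the phosphofructokinase gene Pfkp (0.97). Closest to Ccl5 were Toe1 (0.97), Nkg7 (0.95) and Septin4 (0.93). The type B probe set of Ccl6 was closest to Pak1ip1 (0.98), the transporter gene Slc47a1 (0.98) and Plet1 (0.97), all of them read with the same type B sham array at 2 h. For the dim or flat members the first gene named was less alike than the first named for the others. These genes were Brms1l (0.94), the lamin A gene Lmna (0.93) and Tmem9b (0.92) for Ccl2, Cox17 (0.92), Ros1 (0.91) and Dennd10 (0.89) for Ccl4, and Rita1 (0.92), Gpat4 (0.91) and Mapk8 (0.91) for Ccl7.

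Among the 7 genes themselves, over the same 9 conditions, Il18 followed Ccl6 on type A (r = 0.92) and Ccl3 (r = 0.88) most closely. Ccl5 ran against all others, with r from -0.43 (Ccl4) to -0.81 (Ccl2 and Ccl3). The neighbouring genes Ccl3 and Ccl4 had r = 0.49, and Ccl2 and Ccl7, which lie side by side but were read on different array types, r = 0.52. The 2 probe sets of Ccl6 had r = 0.74.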

How the data were processed

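Biotinylated cRNA from whole lung was measured on 2 types of Affymetrix array, per the labels' protocols. The deposited values are MAS5 signal intensity, per the submitters' processing notes, on a linear scale; their mean without the extreme 2% at each end was 500.1 on every array, so the authors' scaling was kept. Versions and detection calls are not given in the sources used here. Samples were grouped by title. Symbols came from the platform annotation, updated through Entrez identifiers: a single symbol was found for 12789 (type A) and 7570 (type B) probe sets, several for 312 and 100, and none for 2822 and 7663.

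Values were analysed as log2(signal + 50). The 57 control probe sets of a type were left out, dim ones were filtered at the 40th percentile, and 100 present on A and B were kept from type A, which left 19638. Each type was fitted separately in R 4.3.3 by lmFit and trended eBayes of limma 3.58.1, with two-sided p-values adjusted (Benjamini-Hochberg) over both types. One model held exposure and time (4 residual degrees of freedom), another smoke, time and their interaction (3). The spread of this second model is that between concentrations, with no sham variation. The number of arrays limits the precision. The procedure was tested on simulated data. Genes named are all members, list genes that passed or had the 3 smallest p, and the 3 nearest in pattern for each member. Il18r1, Il18bp and the markers named for signals under the filter level were chosen after their values were seen. The members and lists were chosen with earlier results of these data known. Recovery time in the first model acts as a block of 3 arrays; without it Ccl5 no longer passed at 600 µg/l (adjusted p = 0.062). Alternatives changed the normalization, pseudocount, filter, trend, model, adjustment, Ccl6 probe set and arrays included.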

Additional observations from a re-analysis of the deposited data

How the results depend on the processing

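The number of the 7 genes past the threshold at 600 µg/l against sham was 4. It was 0 with no filter on dim probe sets, with no intensity trend, with only the 2 exposures compared and without the 20 h conditions, and 0 to 3 when 1 condition was left out. Under quantile normalization, with no other factor in the model and with the type B probe set of Ccl6 it was 3, and under the other 6 settings 4. The cause was not tested. In the other 7 comparisons it stayed 0 under every alternative that could be run. Over all 8 comparisons, the log2 changes of members changed sign in 43 of 1216 alternative values. Among the 879 of those that belong to values printed here (all but 20 h against 6 h and the interaction terms of genes other than Ccl6), 24 changed sign, none of them from a called value. Ccl4 at 600 µg/l gave -0.047 without the 20 h conditions and -0.064 to 0.19 when 1 condition was left out; its other ranges of that kind were -0.10 to 0.058 at 300 µg/l, -0.017 to 0.23 at 600 against 300 µg/l (-0.034 without the 20 h conditions), -0.11 to 0.048 at 6 h and -0.16 to 0.10 at 20 h against 2 h (0.0003 with 4 times the pseudocount). Ccl2 at 300 µg/l ran from -0.027 to 0.76 when 1 condition was left out, and was 0.79 without the 20 h conditions. Ccl6 on type A at 6 h against 2 h gave -0.029 under quantile normalization and ran from -0.056 to 0.16, and its smoke effect at 20 h minus 2 h from -0.16 to 0.011. Ccl6 on type B, without the type B sham array at 2 h, stood at 0.077 at 6 h and 0.079 at 20 h against 2 h, the highest of ranges that began at -0.64 in both. A further 47 values lost a call and 4 gained one. Interaction terms could not be fitted without the sham condition of a time compared, with only the compared groups or with no other factor. Ccl2, Ccl4 and Ccl7 did not pass the 60th percentile filter. Signals near or under the filter level, those of Ccl2 and Ccl7, limit what can be seen.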
